A study of Bos taurus with 42 samples.

Results

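The myosin heavy chain genes MYH3, MYH7, MYH15 and MYH14 were followed in the cerebrum, liver and hind limb muscle of bovine fetuses. The 4 genes are those myosin heavy chains whose Ensembl identifiers the study's supplementary lists pair with a symbol, out of 22664 counted genes: ENSBTAG00000011803 (MYH3), ENSBTAG00000009703 (MYH7), ENSBTAG00000018399 (MYH15) and ENSBTAG00000002580 (MYH14). The other myosin heavy chains carry no symbol there and are not analysed here. The genes were taken by name, whatever their levels, but those lists are themselves results from the same fetuses. MYH3 stands on a list of differentially expressed cerebrum genes and MYH15 on a list of tissue-specific muscle genes, so their behaviour in those comparisons is not independent evidence.

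The study asked how maternal feeding in early pregnancy bears on gene expression in fetal tissues. RNA-Seq was carried out on 42 libraries, 1 from each of 3 tissues of 14 fetuses. The dams were Angus-cross heifers bred by 1 common sire, and the fetuses were taken at day 50. The 7 control dams (CON) received 100% of their requirement, and the 7 restricted dams (RES) received 60% of the CON delivery from breeding onward. CON held 6 male fetuses and 1 female, and RES held 5 males and 2 females. Total counts per library lay between 4145093 and 7576159 in the cerebrum, between 6658218 and 12741299 in the liver, and between 5384018 and 7592149 in muscle. The muscle samples are labelled as left hind limb, a tissue that at this age also holds nerve, connective tissue and cartilage.

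Myosin heavy chains are the motor subunits of the thick filament in striated muscle and of contractile bundles in other cells. They assemble as pairs with light chains, bind actin and use ATP to move along it. MYH3 encodes the embryonic form, the main sarcomeric myosin of muscle fibres as they first form. MYH7 encodes the slow form of type I fibres, which is also the main form of the heart ventricle in large mammals. MYH15 encodes an ancient sarcomeric form known mostly from the muscles that move the eye. MYH14 encodes a non-muscle form found in epithelia and other tissues. MYH3 lies in a cluster with the other skeletal forms and MYH7 lies beside MYH6, so reads from stretches that such copies share can be lost or placed on the wrong gene, and the levels of both genes carry that uncertainty.

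The tissue labels matched their markers. MYOG, the factor that starts muscle differentiation, averaged 129 ± 83.4 CPM (counts scaled to a common library size) in muscle (SD, n = 14), and ALB, the albumin of hepatocytes, averaged 24438 ± 8395 CPM in the liver. NEUROD6, a factor of cortical neurons, was lower in muscle than in the cerebrum by a log2 fold change of -9.24 ± 0.47 (SE; adjusted p = 1.38e-20). The libraries also stood apart in a few places that bear on the myosins. The cerebrum library of RES fetus 1 carried 127 CPM summed over the 12 skeletal muscle markers, whereas the other 13 cerebrum libraries carried between 2.67 and 18.5 CPM. The muscle library of CON fetus 73 carried 1497 CPM summed over the 6 neuron markers and that of RES fetus 1 carried 344 CPM, against 14.6 to 59.6 CPM in the other 12. In the liver, the share of counts on named mitochondrial genes lay between 4.04% and 67.7%. Where a myosin result rests on one of these libraries, its value without that library stands beside it.

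MYH3 was a gene of muscle. In muscle its level was 1032 CPM at the lowest, 2162 at the median and 2538 at the highest in CON, and 734, 2373 and 5066 in RES. In the liver the lowest, median and highest levels were 3.30, 3.71 and 17.3 CPM in CON, and 1.78, 9.59 and 21.4 in RES. In the cerebrum they were 1.09, 2.93 and 7.98 CPM in CON, and 1.09, 5.03 and 72.1 in RES. Every muscle library was above every library of the other tissues, and the diets overlapped in all 3 tissues. With edgeR's quasi-likelihood test over all 42 libraries, MYH3 was 351-fold higher in muscle than in the cerebrum (log2 fold change 8.45 ± 0.58, adjusted p = 1.98e-16; 650-fold, 9.34 ± 0.46, without RES fetus 1) and 277-fold higher than in the liver (8.12 ± 0.57, adjusted p = 9.10e-17). In bulk tissue, fewer cells of a type and less RNA per cell cannot be told apart. Of all 15972 genes tested, 68.1% passed an adjusted p of 0.05 between muscle and cerebrum (32.2% higher in muscle and 35.9% lower). Between muscle and liver 82% passed (45.5% higher in muscle and 36.6% lower), and between cerebrum and liver 83.6% passed (45.2% higher in the cerebrum and 38.5% lower). Passing such a test was therefore common, and the size of the difference says more than the call. The median log2 fold change over all genes was -0.06, 0.21 and 0.17 in the 3 comparisons.

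The cerebrum and the liver both held little MYH3, and the cerebrum level was below that of the liver in 12 of 14 fetuses, all but CON fetus 46 and RES fetus 1. In the fit without a block for the fetus the log2 fold change of cerebrum against liver was -0.34 ± 0.46 (adjusted p = 0.491), and the call turned on 1 library. Without RES fetus 1, MYH3 was lower in the cerebrum (log2 fold change -1.38, adjusted p = 0.000768), and with the fetus as a block in the fit it was lower by the same test (-1.02 ± 0.35, adjusted p = 0.00772). Liver MYH3 had a median of 19.0 CPM in the 4 libraries with over 30% of counts on named mitochondrial genes. Its median was 4.23 CPM in the other 10, and the part of RNA quality in this comparison was not tested.

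MYH7 followed MYH3 into muscle but not out of the cerebrum. Its lowest, median and highest levels in muscle were 132, 216 and 320 CPM in CON, and 86.4, 276 and 648 in RES. In the cerebrum they were 2.80, 11.5 and 14.8 CPM in CON, and 7.34, 9.49 and 29.7 in RES, from 13 to 236 counts per library. In the liver no library had more than 4 counts, and 2 RES libraries had none, which allows up to 0.576 and 1.24 CPM there (3 counts). The 3 tissues therefore did not overlap, with muscle highest, the cerebrum between and the liver lowest. MYH7 was 21.0-fold higher in muscle than in the cerebrum (log2 fold change 4.39 ± 0.26, adjusted p = 1.18e-18). It was 37.3-fold higher in the cerebrum than in the liver (5.22 ± 0.36, adjusted p = 4.31e-17) and 784-fold higher in muscle than in the liver (9.61 ± 0.37, adjusted p = 6.06e-26).

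MYH15 was also a gene of muscle, at fewer counts. In muscle its lowest, median and highest levels were 12.9, 39.7 and 54.6 CPM in CON, and 20.3, 43.1 and 59.1 in RES. The cerebrum held 2 to 11 counts per library, and the liver held 0 to 2, with 10 of 14 liver libraries at 0, each allowing up to 0.447 to 1.24 CPM. MYH15 was 55.3-fold higher in muscle than in the cerebrum (log2 fold change 5.79 ± 0.27, adjusted p = 8.08e-22) and higher in muscle than in the liver by 8.40 ± 0.35 on the log2 scale (adjusted p = 1.07e-24). Its level in the cerebrum was above that in the liver (2.61 ± 0.46, adjusted p = 2.28e-06), an estimate that rests on a total of 7 counts in the liver.

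MYH14 ran the other way and was highest in the liver. Its lowest, median and highest liver levels were 12.8, 19.6 and 24.5 CPM in CON, and 7.84, 11.7 and 17.8 in RES. In the cerebrum they were 2.15, 3.23 and 5.19 CPM in CON, and 1.51, 3.20 and 4.21 in RES. In muscle they were 0.123, 0.890 and 9.11 CPM in CON, and 1.33, 1.67 and 2.54 in RES. The highest of these, 84 counts in CON fetus 73, was in the library with the highest sum of neuron markers. The highest in RES, 2.54 CPM, was in RES fetus 1, the library with the next highest sum. The cerebrum libraries, with 1962 to 8811 CPM of these markers, held only 1.51 to 5.19 CPM of MYH14. No cerebrum library reached the lowest liver library, and all muscle libraries but that of CON fetus 73 were below the liver range. MYH14 was 4.46-fold lower in the cerebrum than in the liver (log2 fold change -2.16 ± 0.29, adjusted p = 4.57e-09) and 7.63-fold lower in muscle than in the liver (-2.93 ± 0.29, adjusted p = 4.40e-12). The smaller difference between muscle and cerebrum (-0.77 ± 0.29, adjusted p = 0.0188) was lost in male fetuses alone (-0.64, adjusted p = 0.115) and without CON fetus 46 (-0.68, adjusted p = 0.0520), and grew without CON fetus 73 (-1.27 ± 0.24).

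**Figure D1:**
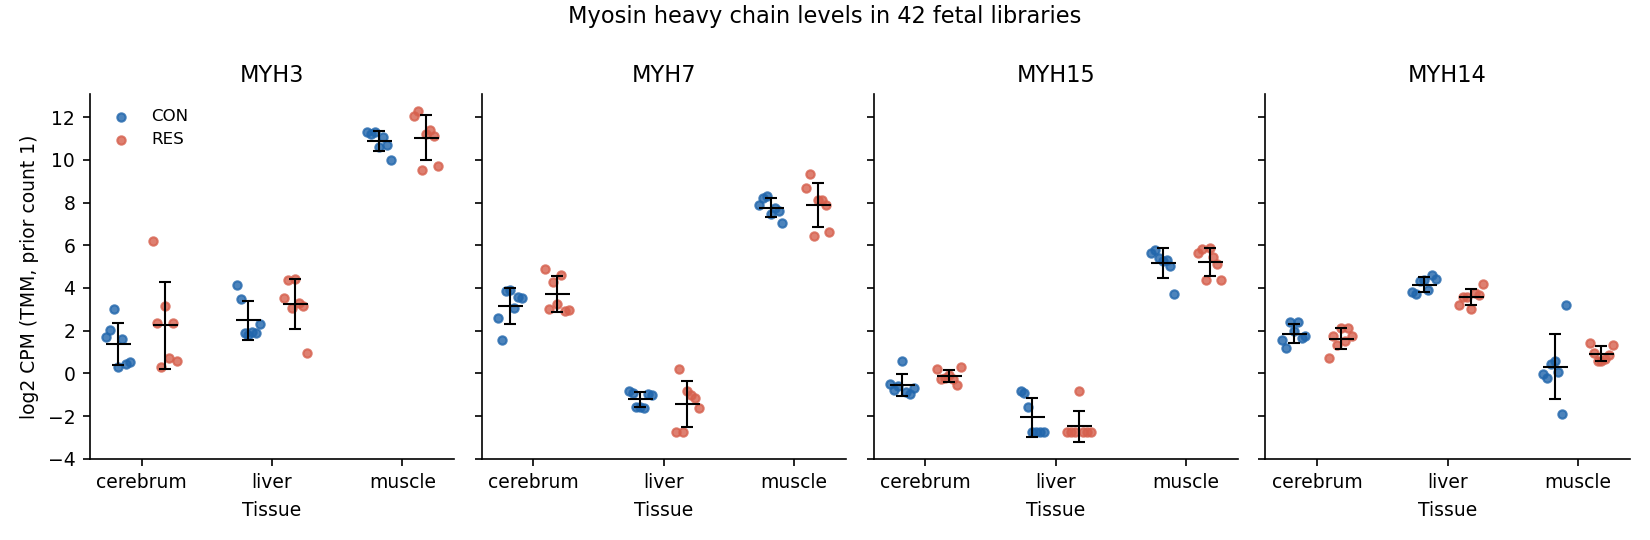
Levels of the 4 genes as log2 CPM (vertical axis) in each of 42 libraries, by tissue and diet (CON blue, RES red), with the mean and SD of 7 fetuses. MYH3, MYH7 and MYH15 stand highest in muscle, MYH14 stands highest in the liver, and the diets overlap in all 12 pairings of gene and tissue.

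Muscle headed the order of the 6 groups of tissue and diet for the 3 sarcomeric genes, and the liver headed it for MYH14. For MYH3, RES muscle (mean log2 CPM 11.04 ± 1.07) and CON muscle (10.89 ± 0.48) differed by less than their spread. Among the 4 lower groups of MYH3, no neighbours differed by more than their larger SD. For MYH7 the steps from CON muscle (7.76 ± 0.44) to RES cerebrum (3.71 ± 0.86) and from CON cerebrum (3.16 ± 0.84) to CON liver (-1.22 ± 0.36) exceeded the spread with no overlap of libraries, and the diets within each tissue did not. For MYH15 the step from muscle to cerebrum did so too, while CON cerebrum (-0.55 ± 0.52) and CON liver (-2.06 ± 0.92) overlapped. For MYH14 the step from CON liver (4.16 ± 0.36) to RES liver (3.56 ± 0.37) exceeded the larger SD, although the libraries overlapped.

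The rest of the contractile apparatus was described for lists of genes, as far as the study's lists give their members a symbol. Of 22664 counted genes, 5119 have one, and list members without one could not be identified. The study's lists include genes tissue-specific to muscle, so the counts below are not independent evidence. All 25 genes with a symbol, of the 37 on the sarcomere list, were higher in muscle than in the cerebrum, and all 25 were higher than in the liver, with median log2 fold changes of 7.45 and 8.39 (8.19 and 8.52 without RES fetus 1, with the same counts). They included ACTC1, the alpha actin of the heart and of embryonic muscle (1859 ± 1119 CPM in muscle, and in the cerebrum 111 CPM in RES fetus 1 and 1.61 ± 1.03 in the other 13), and MYLPF, a light chain of fast skeletal myosin (649 ± 472 CPM in muscle). All 7 genes with a symbol, of the 8 on the slow fibre list, were higher in muscle in both comparisons (medians 6.83 and 9.79; the first was 7.92 without RES fetus 1), among them MYL2 (433 ± 299 CPM), the regulatory light chain of slow and ventricular myosin. So were the 6 genes with a symbol of the 10 on the fast fibre list (medians 7.46 and 7.39; the first was 8.37 without RES fetus 1), among them TNNT3 (289 ± 212 CPM), the fast troponin T. Of 9 genes with a symbol among the 14 myogenic regulators listed, 7 were higher in muscle than in the cerebrum, 8 were higher than in the liver and 1 was lower. The non-muscle actomyosin list had only 4 named members, including TPM4, a cytoskeletal tropomyosin (434 ± 44.3 CPM in muscle). Of these, 2 were higher and 1 lower in muscle than in the cerebrum, with a median of 0.86.

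Within muscle, the ratio of slow to embryonic myosin was nearly constant. MYH3 differed 6.90-fold between the lowest and the highest of the 14 libraries and MYH7 differed 7.50-fold, yet the counts of MYH7 per 100 counts of MYH3 lay between 9.44 and 12.8. In CON these ratios were 9.44 at the lowest, 11.8 at the median and 12.8 at the highest, and in RES they were 9.52, 11.7 and 12.8. The ratio in counts is not corrected for the length of either gene, so only its constancy between libraries can be read, not which myosin is more abundant. The difference between diets in the mean log2 ratio was -0.04 (exact permutation test over all splits of the fetuses into 7 and 7, two-sided, p = 0.679, adjusted over 3 ratios p = 0.712). MYH15 per 100 counts of MYH3 lay between 1.13 and 2.77 in muscle, and its diets differed by -0.09 on the log2 scale (exact p = 0.712, adjusted p = 0.712). MYH14 per 100 counts of MYH3 was 0.883 in CON fetus 73 and at most 0.284 in the others, and its diets differed by 0.47 (exact p = 0.585, adjusted p = 0.712). Without that fetus they differed by 1.10 (exact p = 0.0693, adjusted p = 0.208).

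The ratio varied more between cerebrum libraries, with an SD of 1.71 on the log2 scale against 0.16 in muscle. In the cerebrum, MYH7 per 100 counts of MYH3 was 41.2 at the lowest, 235 at the median and 1783 at the highest, above the muscle library of the same fetus in 14 of 14 fetuses. The lowest value was that of RES fetus 1, whose cerebrum had 573 counts of MYH3 and 236 of MYH7. In the liver the ratio was 0 at the lowest, 4.20 at the median and 10.5 at the highest, but with at most 4 counts of MYH7 per library its constancy cannot be judged there. These ratios between tissues were chosen for description after the levels were seen and carry no test. The cerebrum library with the most MYH7, RES fetus 1, also held the most skeletal muscle markers, with 127 CPM. The next highest in MYH7 counts, RES fetus 52 with 178, held 8.66 CPM of them, and CON fetus 54 with 122 held 3.89 CPM. Without RES fetus 1 the markers ranged from 2.67 to 18.5 CPM over the other 13 cerebrum libraries. The part of muscle RNA in the MYH7 level of the cerebrum was not tested.

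**Figure D2:**
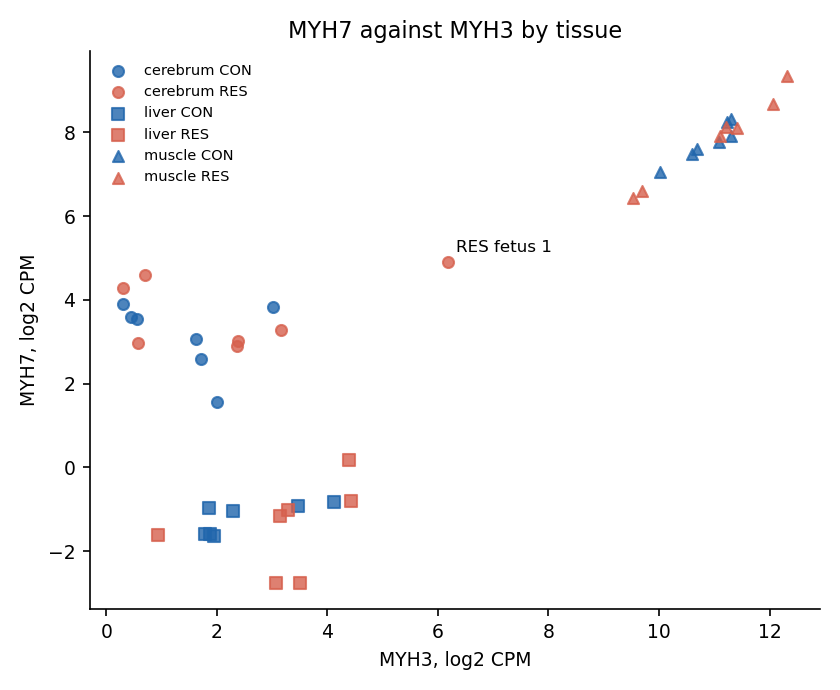
MYH7 (vertical axis) against MYH3 (horizontal axis), both as log2 CPM, for 42 libraries, with shape for tissue and colour for diet. The 14 muscle libraries follow a line with 9.44 to 12.8 counts of MYH7 per 100 of MYH3, the cerebrum libraries lie to its upper left, and RES fetus 1 is the cerebrum library with the highest MYH3.

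The 3 sarcomeric genes varied together between fetuses in muscle. Over the 14 muscle libraries, log2 CPM of MYH3 and MYH7 correlated with Pearson's r = 0.98 and Spearman's rho = 0.93 (permutation p = 1e-05 for both, the smallest that 100000 resamples can give; adjusted over 6 pairs p = 6e-05). Without the fetuses farthest from the median of MYH3, RES 25 and RES 70, r was 0.96, and it was 0.93 within CON and 0.99 within RES. MYH3 and MYH15 gave r = 0.85 and rho = 0.82 (permutation p = 0.00015 and 0.00055, adjusted p = 0.00045 and 0.0011). Without RES 25 and RES 70 r was 0.78, within CON it was 0.91 and within RES 0.92, the last falling to 0.51 without the same 2 fetuses. MYH7 and MYH15 gave r = 0.82 and rho = 0.85 (permutation p = 0.0003 and 0.00018, adjusted p = 0.0006 and 0.00054), and r was 0.82 without RES 6 and RES 25, 0.83 within CON and 0.93 within RES, the last falling to 0.61 without RES 25 and RES 70. The correlations of MYH14 did not pass the threshold with MYH3 (r = -0.15, rho = 0.02, permutation p = 0.615 and 0.953, adjusted p = 0.66 and 0.988) or with MYH7 (r = -0.13, rho = -0.01, permutation p = 0.66 and 0.988, adjusted p = 0.66 and 0.988). Both values of r turned positive without CON fetus 73, at 0.12 and 0.093 (adjusted p = 0.89 for both). They were -0.57 and -0.50 within CON and 0.18 and 0.14 within RES. Without the 2 fetuses farthest from the median they were -0.093 for MYH3 and -0.28 for MYH7. With MYH15 it gave r = -0.47 and rho = -0.19 (permutation p = 0.103 and 0.522, adjusted p = 0.154 and 0.783), and r was -0.032 without CON fetus 73 and -0.68 (adjusted p = 0.0213) without CON fetus 69.

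The skeletal muscle markers of each library moved with them. The summed level of the 12 skeletal muscle markers differed 9.61-fold between muscle libraries, from 618 CPM in RES fetus 25 and 722 in RES fetus 70 to 5812 in RES fetus 1 and 5941 in RES fetus 6, with MYLPF the most abundant marker in all 14. MYH3 was lowest and highest in the same 4 fetuses, with 734 and 831 CPM against 4264 and 5066 CPM. In a relation looked at after the levels were seen, the log2 marker sum correlated with MYH3 (r = 0.97, rho = 0.99, permutation p = 1e-05, adjusted over 4 genes p = 2e-05 and 4e-05), with MYH7 (r = 0.94, rho = 0.90, permutation p = 1e-05 and 3e-05, adjusted p = 2e-05 and 6e-05) and with MYH15 (r = 0.74, rho = 0.75, permutation p = 0.00196 and 0.003, adjusted p = 0.00261 and 0.004). With MYH14 it gave r = -0.05 and rho = 0.01 (permutation p = 0.883 and 0.976). Without the fetuses farthest from the median of the marker sum, r was 0.95 for MYH3, 0.89 for MYH7, 0.60 for MYH15 and 0.05 for MYH14. For MYH14 it was -0.35 within CON and 0.27 within RES. Whether the samples differed in their content of muscle or in the state of the fibres was not tested.

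**Figure D3:**
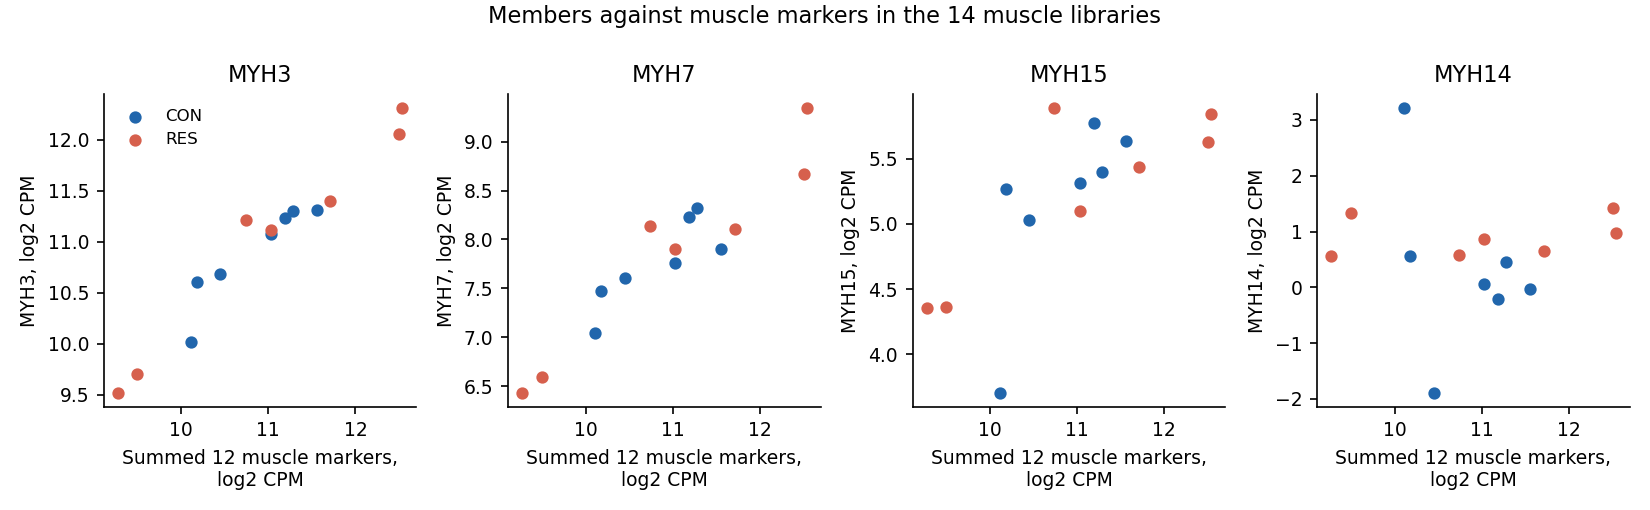
Log2 CPM of each gene (vertical axis) against the log2 of the summed CPM of 12 skeletal muscle markers (horizontal axis) in the 14 muscle libraries, with CON in blue and RES in red. MYH3 and MYH7 follow the markers (r = 0.97 and 0.94), MYH15 follows them less closely (r = 0.74), and MYH14 does not (r = -0.05).

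The genes most like each member were sought among all genes with a symbol over the 14 libraries of the tissue where the member was highest, a description without a test. Of 4672 genes in muscle, those most like MYH3 were HRC, a calcium-binding protein of the sarcoplasmic reticulum (r = 0.99), DUSP27 (r = 0.99), LMOD3, which builds thin filaments (r = 0.99), ACTC1 (r = 0.99) and MYBPC1, the slow myosin-binding protein C (r = 0.99). MYH7 itself ranked 8 among them, whereas MYH15 ranked 263. Most like MYH7 were MYH3 (r = 0.98), HRC (r = 0.97), SOX8, a transcription factor (r = 0.96), MYBPC1 (r = 0.96) and DUSP27 (r = 0.96), and MYH15 ranked 271 for it. Most like MYH15 were ATP1B4 (r = 0.92), ADGRE3 (r = 0.91), LIMA1, an actin-binding protein (r = 0.91), MYOZ3, a protein of the Z-disc (r = 0.90), and CMYA5 (r = 0.88), and MYH3 ranked 20 for it. Without CON fetus 73 the r of these 5 genes with MYH15 lay between 0.84 and 0.93 and MYH3 ranked 6. CMYA5 and ATP1B4 then ranked 1 and 2, whereas MYOZ3, ADGRE3 and LIMA1 fell to ranks 18, 30 and 42. Most like MYH14 among 4485 genes in the liver were PLXNC1, a semaphorin receptor (r = 0.91), HSD17B11 (r = 0.90), SMARCA1, a chromatin remodeller (r = 0.90), CBR4 (r = 0.89) and PCDHAC2 (r = 0.89). MYH3 was near the opposite end of that list, at rank 4135 (r = -0.79). These liver values move with the mitochondrial share of the libraries, which ran from 4.04% to 67.7%. The 4 libraries over 30% had 7.84 to 13.9 CPM of MYH14 and 11.2 to 21.4 CPM of MYH3, against 11.7 to 24.5 CPM and 1.78 to 10.9 CPM in the other 10. Without those 4, r with MYH14 was between 0.78 and 0.85 for the 5 genes named, which then ranked between 34 and 134, and it was -0.73 for MYH3. Each correlation runs over the same 14 libraries of 1 tissue, so the genes named are not independent of each other.

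The comparison of diets asked whether restricted feeding of the dam changed these genes in the fetus. No gene of the genome passed an adjusted p of 0.05 in edgeR's test in any tissue (0% called for cerebrum, 0% for liver and 0% for muscle), and the 4 myosins were no exception. At an unadjusted p under 0.05 the cerebrum had 386 genes (2.55%), the liver 3260 (24.1%) and muscle 1481 (9.91%). By the Wald test of DESeq2 the numbers called were 0, 86 and 13. None of the 4 myosins was among them, and it gave no adjusted p for MYH14 in muscle.

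In muscle, MYH3 was higher in RES by a log2 fold change of 0.39 ± 0.36 (adjusted p = 0.706) and MYH7 by 0.37 ± 0.35 (adjusted p = 0.708), both well within the spread of the fetuses. Without RES fetus 6 the estimates were 0.16 and 0.07, and without CON fetus 68 they were 0.63 and 0.57. Without the 2 muscle libraries with over 100 CPM of neuron markers they were 0.14 and 0.21. MYH15 differed by 0.09 ± 0.29 (adjusted p = 0.930), and by -0.06 ± 0.22 without CON fetus 73. The sarcomere list had 0 of 25 genes past the threshold, with a median log2 fold change of 0.54 beside -0.01 over all genes. The slow fibre list had 0 of 7 (median 0.52), the fast fibre list 0 of 6 (0.61) and the myogenic regulators 0 of 9 (0.09).

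The direction of the MYH14 difference in muscle depended on the summary used and on 1 library. The mean log2 CPM was higher in RES (0.91 ± 0.35) than in CON (0.31 ± 1.52; SD, n = 7 each), as was the median (1.67 against 0.89 CPM), whereas the mean CPM was lower (1.78 against 2.03), with CON fetus 73 at 9.11 CPM. The fitted log2 fold change over 14 fetuses was -0.19 ± 0.67 (adjusted p = 0.936). Without CON fetus 73, RES was higher by 1.02 ± 0.35 (unadjusted p = 0.0115, adjusted p = 0.497). The levels were then 0.123 to 1.327 CPM in 6 CON fetuses and 1.331 to 2.54 CPM in 7 RES fetuses, ranges that all but met. In counts the diets met at 11, in CON fetus 46 and RES fetus 33. CON fetus 73 was singled out after the levels were seen. The share of all genes whose ranges part in this way was not counted, so the gap is a description only. Without CON fetus 73 and RES fetus 1, the 2 muscle libraries with over 100 CPM of neuron markers, the difference was 0.88 ± 0.36 (unadjusted p = 0.0285, adjusted p = 0.740). The counts behind it are small, between 1 and 22 per library outside CON fetus 73. In that library all 6 neuron markers had counts, led by STMN2, a protein of growing axons, with 8264 counts, and their part in the MYH14 level was not tested.

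In the cerebrum, MYH3 was higher in RES by 2.07 ± 0.85 on the log2 scale (unadjusted p = 0.0277, adjusted p = 0.999). Of the 7 RES fetuses, fetus 1 had 573 counts and the others had 6 to 55, beside 9 to 47 in CON. Without RES fetus 1 the difference was 0.36 ± 0.58 (unadjusted p = 0.539). The same library held all 12 skeletal muscle markers above 0, with MYLPF at 325 counts, DES, the desmin of the intermediate filaments, at 221 and TNNC2, the fast troponin C, at 109. It also had the highest sum of the other marker lists that were counted there for liver, blood and smooth muscle: 6014 CPM over 4 hepatocyte markers, of which 5632 were TTR, a gene that the choroid plexus of the brain also expresses, where the other cerebrum libraries summed to 14.4 to 1154, 263 CPM over 4 erythroid markers and 126 CPM over 3 smooth muscle markers. Markers of limb mesenchyme (121 CPM), cartilage (93.2 CPM), endothelium (49.3 CPM), meninges (29.2 CPM) and cardiac muscle (3.15 CPM) were also highest there, as was the share of counts on named mitochondrial genes, at 14.7% where the other 13 had 2.73% to 6.89%. Its neuron markers summed to 1962 CPM, the lowest of the 14. The part of such RNA in the MYH3 difference was not tested, but the difference is 0.36 without the library. The sarcomere list had 0 of 14 tested genes past the threshold in the cerebrum, 10 of them at an unadjusted p under 0.05, where 2.55% of all genes had one, with a median of 2.05 beside -0.03 over all genes. Without RES fetus 1, 0 of 13 had an unadjusted p under 0.05, the median was 0.45, and the number over all genes was 108 of 15042 (0.718%).

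MYH7 in the cerebrum differed by 0.62 ± 0.36 (adjusted p = 0.999), MYH15 by 0.43 ± 0.39 and MYH14 by -0.32 ± 0.28, with the same adjusted p. Without RES fetus 1, MYH7 differed by 0.40 and MYH14 by -0.21. MYH14 differed by -0.48 without RES fetus 33, and MYH15 by 0.76 without CON fetus 54. None of these directions turned when any single fetus was left out.

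In the liver, MYH14 was lower in RES by a log2 fold change of -0.65 ± 0.22 (unadjusted p = 0.0107, adjusted p = 0.184), with 12.0 ± 3.19 CPM in RES and 18.2 ± 4.40 in CON (SD, n = 7 each). The estimate stayed between -0.81 and -0.56 when each fetus was left out in turn. MYH14 was low where the mitochondrial share was high. The 4 libraries with over 30% of their counts on named mitochondrial genes, CON fetus 2 and RES fetuses 1, 6 and 33, had 13.9, 9.13, 11.6 and 7.84 CPM of MYH14, against 11.7 to 24.5 CPM in the other 10. Without them the difference was -0.44 ± 0.25 (unadjusted p = 0.109, adjusted p = 0.633), and the part of RNA quality or composition was not tested. MYH3 in the liver was higher in RES by 0.88 ± 0.44 (unadjusted p = 0.0609, adjusted p = 0.218), and by 0.70 ± 0.46 (adjusted p = 0.636) without those 4 libraries. MYH7 and MYH15 had too few liver counts to enter the test, and no diet difference of theirs was detectable there at this depth.

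**Figure D4:**
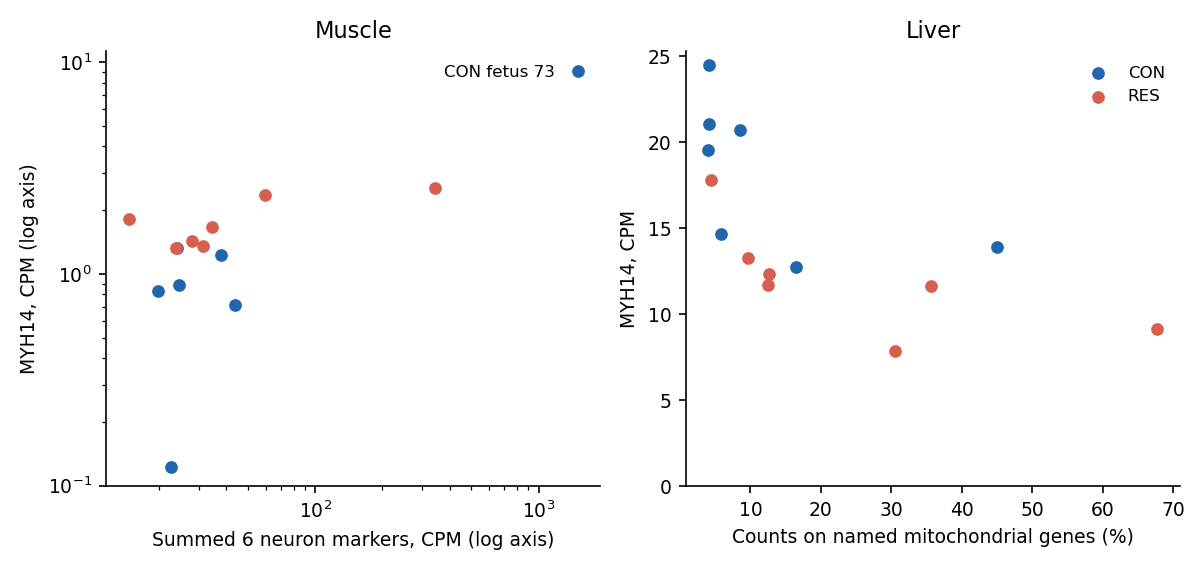
MYH14 in CPM (vertical axes) by library, in muscle against the summed CPM of 6 neuron markers (both axes logarithmic) and in the liver against the percentage of counts on named mitochondrial genes, with CON in blue and RES in red. CON fetus 73 stands alone in muscle at 9.11 CPM, and the 4 liver libraries above 30% lie between 7.84 and 13.9 CPM.

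**Figure D5:**
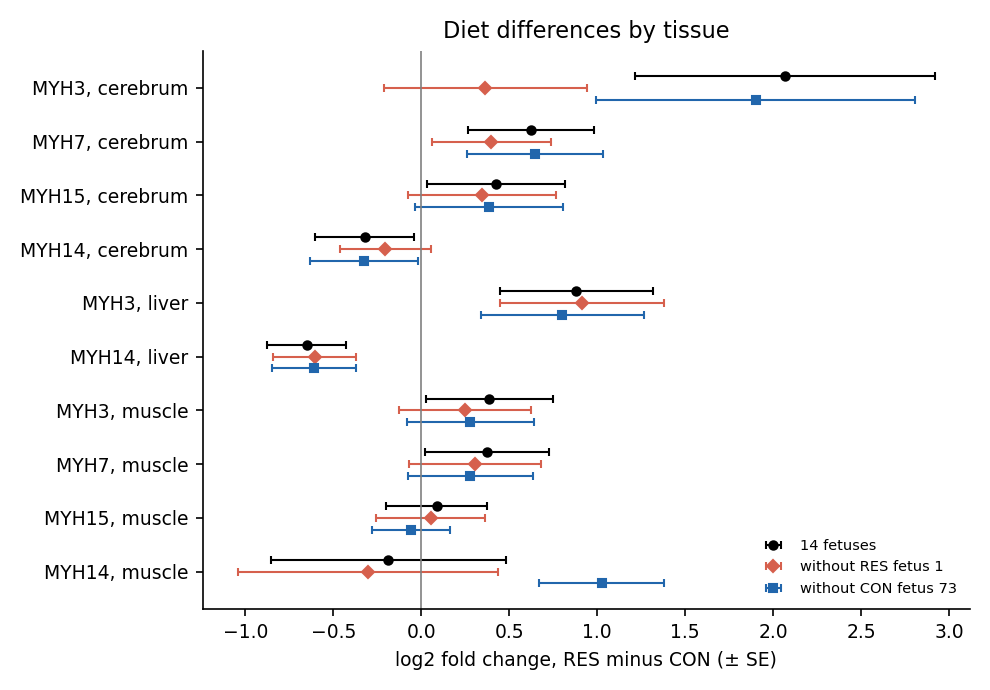
Log2 fold change of RES against CON (horizontal axis) with its SE for each gene and tissue tested, over 14 fetuses, without RES fetus 1 and without CON fetus 73. MYH3 in the cerebrum falls from 2.07 to 0.36 without RES fetus 1, and MYH14 in muscle moves from -0.19 to 1.02 without CON fetus 73.

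Whether the diet difference itself differed between tissues was tested with an interaction term. Of all genes, 0% passed an adjusted p of 0.05 in edgeR's test for muscle against cerebrum, 0% for muscle against liver and 0% for cerebrum against liver, where 668 (4.18%), 931 (5.83%) and 1319 (8.26%) genes had an unadjusted p under 0.05. For MYH3 in muscle against cerebrum the estimate was -1.73 ± 0.86 (unadjusted p = 0.0515, adjusted p = 1), and it was -0.19 without RES fetus 1. For MYH15 it was 1.37 ± 1.09 in cerebrum against liver and 0.996 ± 1.01 in muscle against liver. Without RES fetus 33, which held 2 of the 7 liver counts, these were 3.44 and 2.96. MYH15 had too few liver counts for a test of diet there, so these 2 estimates decide nothing about it. For MYH14 in muscle against liver the estimate was 0.39 ± 0.58 (adjusted p = 0.895) and 1.63 without CON fetus 73.

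The study listed 6 gene pairs with a myosin for a correlation that differed between the diets, and since they were picked on these fetuses their values are a description. In muscle, MYH14 and ZNF786, a zinc finger protein, gave r = -0.94 in CON and 0.99 in RES over 7 fetuses each. MYH7 and FYCO1, an adaptor that moves autophagosomes, gave r = 0.99 in CON and -0.86 in RES. In the cerebrum, MYH3 gave r = -0.98 in CON and 0.90 in RES with CHRNE, a subunit of the acetylcholine receptor, and -0.92 and 0.83 with NFKB2. With ZC3H12A, an RNase, it gave -0.85 and 0.90, and with MANEA 0.94 and -0.91. The sign of all 6 pairs held in both diets when each fetus was left out, which is no further evidence for pairs picked in this way. The 3 positive correlations in the RES cerebrum were lowest without fetus 1, at 0.65 for CHRNE, 0.44 for NFKB2 and 0.64 for ZC3H12A. Spearman's rho in the RES cerebrum was 0.61 with CHRNE and NFKB2, 0.46 with ZC3H12A and -0.79 with MANEA. CHRNE lay between 0.510 and 3.65 CPM in the cerebrum and ZC3H12A between 0.541 and 2.14 CPM.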

How the data were processed

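The authors checked and filtered the reads (CASAVA and FastQC 0.11.8 are named in the submitters' processing notes), mapped them to the bovine genome with STAR 2.7.3a and counted uniquely mapped reads for each Ensembl gene (GeneCounts). These raw counts were deposited without normalization. Libraries were strand specific, and the strand column kept is not given in the sources used here. Symbols came from the supplementary lists.

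Counts were analysed in R 4.3.3 with edgeR 4.0.16 (quasi-likelihood test, TMM factors, fetal sex as covariate, Benjamini-Hochberg over all genes) and DESeq2 1.42.0 as an alternative. A gene was left out of a fit when its CPM was under 1 in 80% or more of the libraries, so that 15972 genes were kept over all tissues, 15151 for cerebrum, 13527 for liver and 14947 for muscle. All 4 myosins were kept except MYH7 and MYH15 in the liver. Levels are CPM with TMM factors, and log2 CPM has a prior count of 1. Ratios are log2 of counts plus 1. Exact and permutation tests used Python 3.11.15 with scipy 1.17.1 and numpy 2.4.6, all two-sided. Named were the 4 myosins, per myosin the 5 genes most correlated with it, and per list genes of high mean CPM in muscle. MYLPF, the most abundant fast fibre gene in muscle, was named under the sarcomere list and not again. The genes, lists and tests were chosen with earlier results of these data known. The labels name no batch. Within a tissue each library is 1 fetus, so the p-values of the diet fits measure the spread between fetuses. The main fits of the tissues and of the interaction treated the libraries of a fetus as independent. The pairing by fetus entered only the fits with the fetus as a block.

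Same-numbered libraries come from the same fetus, so the numbers pair the tissues. Over genes, the deviations of a fetus from its group means correlated with a median r of 0.03 between cerebrum and liver, 0.06 between cerebrum and muscle and 0.12 between liver and muscle. No library duplicated another (chi-square over degrees of freedom of at least 3.88 between libraries of a group). On counts simulated from the muscle libraries (14947 genes), the diet test recovered 90% of genes changed by 1 on the log2 scale and 98% of those changed by 2. On counts simulated for muscle against cerebrum (15972 genes), the tissue test recovered 77% and 99%. Both simulations changed only genes above a minimum mean count. They drew counts around a common mean for each gene, so no library was outlying over many genes. The recovered shares therefore do not give the power of the diet test for the myosins. This holds most for MYH14 in muscle, with its few counts. The floors for a count of 0 cover counting error only, whereas SE and SD include the spread between fetuses.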

Additional observations from a re-analysis of the deposited data

Results flagged for a closer look

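Among 30 groups of 7 libraries examined (4 genes in 6 groups and 3 ratios in muscle), 4 held a library whose gap to its nearest neighbour exceeded Dixon's critical share of the range, where chance gives about 1 in 20 groups of continuous values. That rate does not hold for the MYH15 groups of the cerebrum and liver, whose counts are few and tied. MYH15 in the muscle of CON fetus 73 was the lowest of its group at a log2 CPM of 3.71 (119 counts), in the library that also had the highest MYH14 and neuron markers. MYH3 in the liver of RES fetus 70 was the lowest of its group at 0.95 (10 counts). MYH15 in the cerebrum of CON fetus 54 was the highest of its group at 0.57, which is 11 counts against 2 to 4 in the other CON libraries. MYH15 in the liver of RES fetus 33 was the highest of its group at -0.81, which is 2 counts where the other 6 RES livers had none.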

How the results depend on the processing

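The alternatives were DESeq2's size factors and its Wald test, no filter or a stricter filter on low counts, no sex covariate, male fetuses only, a block for the fetus, and each fetus left out in turn. None reversed a call. With the replicate block for the fetus, MYH3 was lower in the cerebrum than in the liver (-1.02, adjusted p = 0.00772), as it was without RES fetus 1. It changed no other call on a myosin. MYH14 in muscle against cerebrum lost its call in males only (-0.64, adjusted p = 0.115). When fetuses were left out, the first of these ranged from -1.38 to -0.13 and the second from -1.27 to -0.67. The correlation of MYH14 with MYH15 in muscle ranged from -0.68 (without CON fetus 69) to -0.032 (without CON fetus 73). DESeq2's Wald test called 86 genes between diets in the liver and 13 in muscle, and for the interaction 2 in muscle against cerebrum, 7 in muscle against liver and 9 in cerebrum against liver, each against 0. Males only gave 12 for the last. Leaving out fetuses gave 0 to 1 genes for the interaction of muscle against cerebrum and of cerebrum against liver. With a prior count of 0.25, mean log2 CPM in the liver was -3.38 for MYH15 in CON, -4.25 for MYH15 in RES and -1.67 for MYH7 in CON. The mean of MYH7 in RES liver fell too, as its 2 libraries at 0 counts went from -2.77 to -4.77. Without CON fetus 73 the directions of MYH14 and MYH15 between diets in muscle turned (1.02 and -0.06), neither past the threshold, and that of MYH15 turned without 3 fetuses in all. The stricter filter left some myosins untested. Settings that drop liver libraries high in mitochondrial counts or muscle libraries high in neuron markers were chosen after seeing the data. Depth limits MYH15 outside muscle and MYH7 in the liver, where a library held at most 11 and 4 counts.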

Other observations

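The spread between fetuses in muscle was looked at after the levels were seen. The SD of log2 CPM was 1.07 in RES and 0.48 in CON for MYH3, 1.05 and 0.44 for MYH7, 0.65 and 0.69 for MYH15, and 0.35 and 1.52 for MYH14. The mean absolute deviation from the diet's median did not differ past the threshold for any of the 4 genes (exact permutation test over all splits of the fetuses, two-sided, p = 0.184, 0.184, 0.733 and 0.265, adjusted over the 4 genes p = 0.353, 0.353, 0.733 and 0.353). The CON values of MYH15 and MYH14 rest on fetus 73. Without it the CON SD was 0.27 for MYH15, 0.89 for MYH14, 0.31 for MYH3 and 0.34 for MYH7 (exact p = 0.137, 0.467, 0.105 and 0.160, adjusted p = 0.214, 0.467, 0.214 and 0.214).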
